A study of Homo sapiens with 6 samples.

Results

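The mitochondrial ribosomal protein genes were examined in SKBR3 breast cancer cells depleted of NDRG1. They were taken as every gene whose symbol starts with MRPL or MRPS and a digit. Of 77 such symbols on the array, 2 pseudogenes and 2 antisense lncRNAs were left out, which left 73 protein-coding genes (48 MRPL and 25 MRPS symbols) among the 14812 named genes measured. RefSeq lists 77 protein-coding genes of this kind, and MRPL12, MRPS6, MRPS18C and MRPS24 had no named probe here.

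The 3 shNDRG1 arrays carried RNA from SKBR3 cells, an established HER2-amplified human breast cancer line, that stably expressed 1 lentiviral hairpin against NDRG1. The 3 shGFP control arrays carried RNA from SKBR3 cells of the control line. The series' design text gives its construct as a hairpin against GFP and the sample names carry GFP, whereas the extraction notes and the study's methods speak of a vector control. The sources do not settle which of these was used, and the group is called shGFP control after the design text. Cultures of both groups grew in serum-containing medium and were harvested in log phase, and the sample names of both carry the tag minusDFO or -DFO, where DFO is the study's name for the iron chelator deferoxamine. The labels place 1 array of each group in each of 3 batches, and batches 2 and 3 bear the same day. With 1 hairpin against NDRG1, effects of NDRG1 loss and of the hairpin itself cannot be told apart. The deposited values are log-scale differences from a per-probe baseline, read here as log2, so they hold no expression level. For this reason the identity of the cells could not be checked against SKBR3 markers and genes are compared only through differences between arrays.

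Mitochondria keep a ribosome of their own that makes the few proteins encoded by mitochondrial DNA, all of them core subunits of the respiratory chain and ATP synthase. Its RNAs come from mitochondrial DNA, but every one of its proteins is encoded in the nucleus, made in the cytosol and imported. Some of these proteins descend from bacterial ribosomal proteins and others exist only in mitochondria. The small subunit reads the mRNA, and the large subunit, attached to the inner membrane, joins the amino acids and releases the chain through an exit tunnel.

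NDRG1, the gene targeted by the hairpin, had log2 values of -0.77, -0.74 and -1.09 on the shNDRG1 arrays of batches 1, 2 and 3, against 0.022, 0.42 and -0.022 on the shGFP control arrays. The groups did not overlap. The fitted difference was -1.01 on the log2 scale (SE 0.09, limma with batch as a block), with a Benjamini-Hochberg adjusted p of 0.289. No gene of the 14812 passed an adjusted p of 0.05, the background share called being 0%, so the target itself did not pass it either. The remaining values are therefore directions, counts and sizes rather than called changes.

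Most mitochondrial ribosomal protein genes lay slightly above the control in shNDRG1 cells. Of the 73 genes, 68 had a mean difference above 0 (93.2%, against 53.6% of all genes) and 5 lay below it (MRPL19, MRPL23, MRPL30, MRPL51 and MRPL52). The deposited differences from the baseline were also normalised by quantiles once more, which gives all arrays the same spread of these differences. After this step 58 of the 73 means lay above 0, with those of MRPL1, MRPL13, MRPL35, MRPL39, MRPL42, MRPL48, MRPS25 and MRPS31 among the ones turned to below 0. The median difference was 0.12 on the log2 scale, against 0.0070 over all genes, and single genes ran from -0.063 to 0.40. The median was 0.081 in batch 1, 0.27 in batch 2 and 0.16 in batch 3, with 54, 66 and 54 of the genes above the control in those batches. On the arrays themselves the median value of the 73 genes was 0.080, 0.16 and 0.039 in the shNDRG1 cells of batches 1, 2 and 3, against 0.0017, -0.0017 and -0.042 in the shGFP control. The values of the 73 genes overlapped widely between the groups in each batch. Both arrays of batch 2 were more spread over all genes, with an SD of 0.29 for shNDRG1 and 0.35 for the shGFP control. On the other arrays this SD ran from 0.13 to 0.16, so the wider spread in batch 2 is not particular to the 73 genes.

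**Figure D1:**
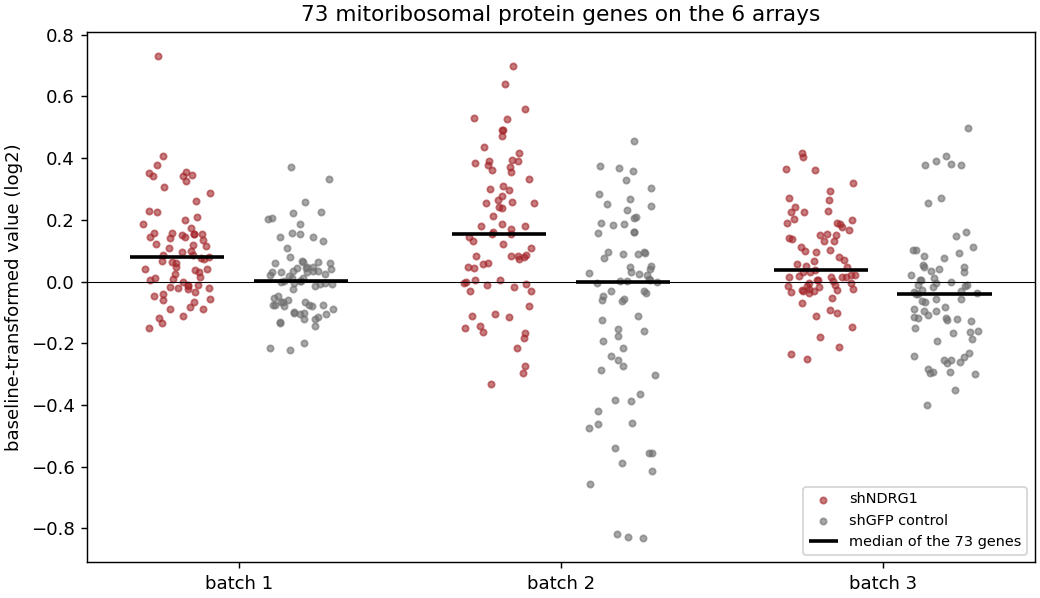
Baseline-transformed log2 value (vertical axis) of each of the 73 genes on the 6 arrays, shNDRG1 in red and shGFP control in grey, by batch, with black bars for the median. The shNDRG1 median lies above the control median in all 3 batches. The shGFP control array of batch 2 has the widest spread, with values from -0.83 to 0.45, and it has the widest spread over all genes too.

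None of the 73 genes passed an adjusted p of 0.05 in either direction, and the lowest adjusted p among them was 0.318. At an unadjusted p under 0.05, limma placed 24 genes above the control and 0 below it. This is 32.9% of the genes, where 5.7% of all genes lay above and 3.74% below at the same limit. Without the batch block the fit placed 11 above and 0 below (15.1%), against 2.69% and 1.57% of all genes. With the arrays of 1 batch left out, the blocked fit placed 14 genes above the control at this limit without batch 2, and 20 without either batch 1 or batch 3.

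A shared direction across the batches was common. Of the 73 genes, 36 lay above the control in all 3 batches (49.3%, against 17.1% of all genes), and MRPL51 alone lay below it in all 3 (1.37%, against 12.5%). In 14 genes every shNDRG1 array exceeded every control array (19.2%, against 5.14% of all genes), and in 0 was the reverse true, against 3.21%. Those 14 were MRPL15, MRPL16, MRPL18, MRPL21, MRPL44, MRPL45, MRPL46, MRPL58, MRPS9, MRPS10, MRPS12, MRPS15, MRPS21 and MRPS33. With 3 arrays against 3, the smallest two-sided exact permutation p for a single gene is 0.1.

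**Figure D2:**
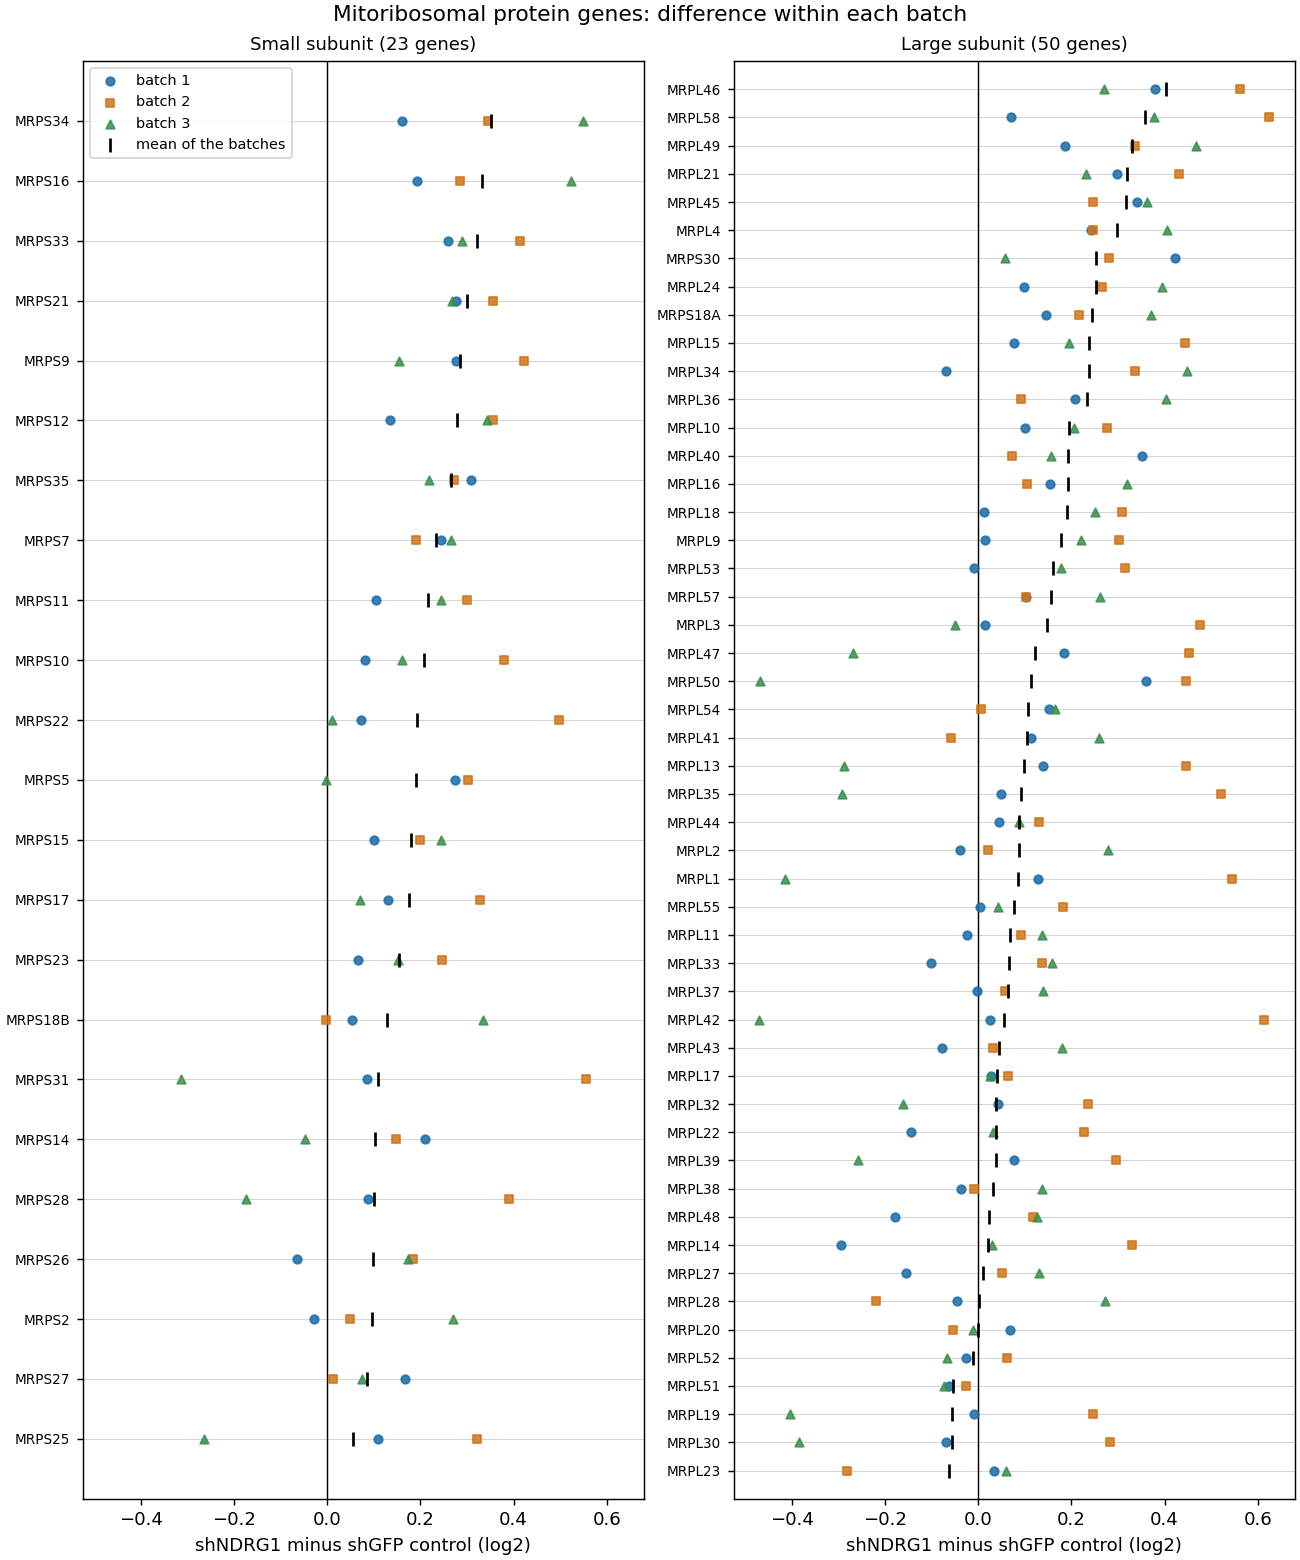
Difference between shNDRG1 and shGFP control within each batch (horizontal axis, log2) for the 23 small subunit and 50 large subunit genes, with a black bar for the mean of the batches. All 23 small subunit means and 45 of the 50 large subunit means lie right of 0, and several genes have a negative green triangle (batch 3) beside a positive orange square (batch 2).

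The small subunit genes all had means above the control. Of 26 small subunit genes listed, 23 were measured, and their median difference was 0.19, with 11 at an unadjusted p under 0.05 (47.8%) and 15 above the control in all 3 batches (65.2%). Of 51 large subunit genes listed, 50 were measured, and 45 lay above the control with a median of 0.095, 13 at an unadjusted p under 0.05 (26%) and 21 above in all 3 batches (42%). Whether the subunits differed was not tested. Within the small subunit, the 13 measured proteins listed with a bacterial counterpart had a median of 0.21 and the 10 others 0.14. Within the large subunit, the 29 listed with a bacterial counterpart had a median of 0.087 and the 21 others 0.11. The lists place MRPS18C, which was not measured, with the first kind. Its paralogs MRPS18A and MRPS18B are placed with the others, so the split is not strictly one of descent.

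Among the small subunit proteins of bacterial descent, MRPS21 is the counterpart of bacterial S21. It had log2 values of 0.20, 0.081 and 0.18 on the shNDRG1 arrays and of -0.077, -0.27 and -0.090 on the shGFP control arrays. Every shNDRG1 array lay above every control array, and the difference was 0.30 (SE 0.05, adjusted p 0.318). MRPS12, which belongs to the decoding centre, had values of 0.060, 0.36 and 0.052 in shNDRG1 cells and of -0.075, 0.0012 and -0.29 in the control. These groups did not overlap either, and the difference was 0.28 (SE 0.07, adjusted p 0.39).

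MRPS7, counterpart of a bacterial protein that nucleates assembly of the small subunit head, had values of 0.29, 0.16 and -0.019 in shNDRG1 cells and of 0.041, -0.036 and -0.28 in the control. The groups overlapped, but within batches the difference was nearly constant, at 0.24, 0.19 and 0.27. Its fitted difference was 0.23 (SE 0.05, adjusted p 0.365). MRPS10, a protein of the small subunit head, had a difference of 0.21 with no overlap between the groups. MRPS5, MRPS14 and MRPS2, other core proteins of this subunit, had differences of 0.19, 0.10 and 0.097. For each of these last 3 genes at least 1 batch lay below the control. The 2 probes of MRPS2 disagreed in batch 2, with differences of -0.21 and 0.30.

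Of the small subunit proteins found only in mitochondria, MRPS33 had values of 0.16, 0.11 and 0.23 in shNDRG1 cells and of -0.10, -0.30 and -0.062 in the control. The groups did not overlap, and the difference was 0.32 (SE 0.06, adjusted p 0.324). MRPS35 had values of 0.33, -0.11 and 0.20 in shNDRG1 cells and of 0.018, -0.38 and -0.018 in the control. Both arrays of batch 2 were low, so that the groups overlapped while the within-batch differences stayed between 0.22 and 0.31, and the fit gave 0.27 (SE 0.05, adjusted p 0.331). MRPS34, which is needed for a stable small subunit, had the largest mean of this subunit at 0.35, with 0.16, 0.34 and 0.55 in batches 1, 2 and 3. MRPS22, a protein mutated in an inherited mitochondrial disease, had 0.073, 0.50 and 0.0096, its mean resting mostly on a control value of -0.61 in batch 2. MRPS26 and MRPS27, the second of which is an RNA-binding pentatricopeptide protein, had differences of 0.098 and 0.085.

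MRPS18A, MRPS18B and MRPS18C are paralogs, of which the first sits in the large subunit. MRPS18A lay above the control in all 3 batches, at 0.15, 0.22 and 0.37, while MRPS18B had 0.053, -0.0028 and 0.34. The 7 probes of MRPS18B gave nearly the same values, with differences between 0.12 and 0.13.

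**Figure D3:**
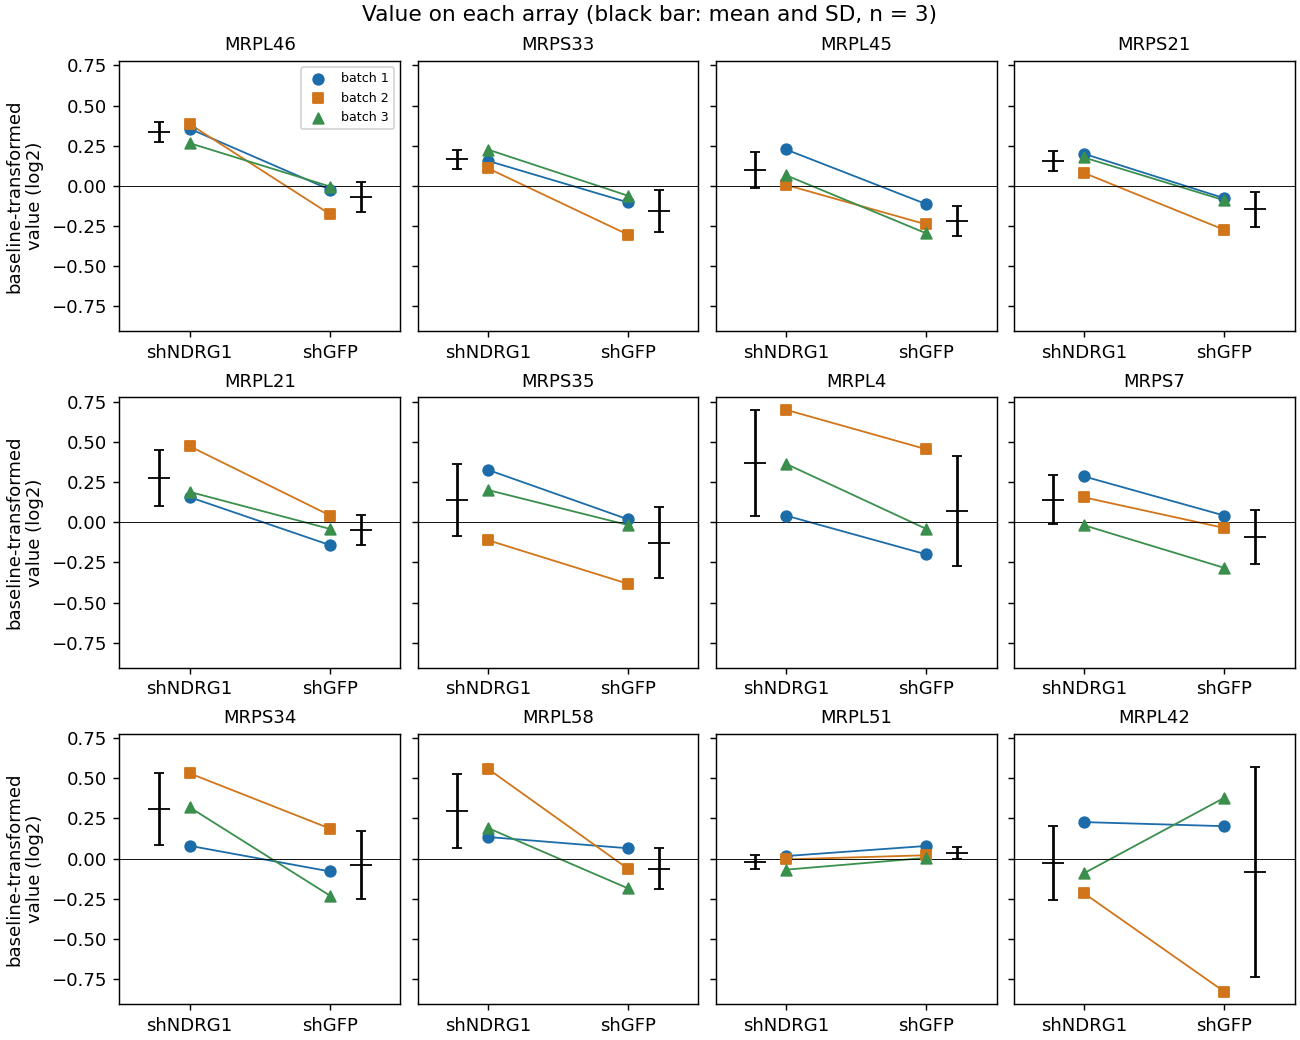
Baseline-transformed log2 value (vertical axis) of 12 genes on the shNDRG1 and shGFP control arrays, with a line joining the 2 arrays of a batch and black bars for the mean and SD (n = 3 in each group). Lines run downwards from shNDRG1 to shGFP in all batches for the first 10 genes, upwards for MRPL51, and in opposite directions for MRPL42.

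In the large subunit, MRPL46 of the central protuberance, the crest that faces the small subunit, had the largest mean difference of the 73 genes. Its values were 0.36, 0.38 and 0.27 in shNDRG1 cells and -0.024, -0.18 and -0.0042 in the control. The groups were far from overlapping, and the difference was 0.40 (SE 0.07, adjusted p 0.327), or 1.32-fold above the control if the logarithm has base 2. The other proteins of the central protuberance were lower in value, with 0.19 for both MRPL18 and MRPL40, 0.031 for MRPL38, 0.022 for MRPL48 and -0.011 for MRPL52. Of these 6 genes, 3 lay above the control in all 3 batches.

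MRPL45, which ties the tunnel exit to the inner membrane, had the smallest p of the 73 genes. Its values were 0.23, 0.0063 and 0.067 in shNDRG1 cells and -0.11, -0.24 and -0.30 in the control. The groups did not overlap, and the difference was 0.32 (SE 0.05, adjusted p 0.318). Around the same exit, MRPL24 had a difference of 0.25, MRPL47 of 0.12, MRPL44 of 0.087, MRPL17 of 0.039, MRPL22 of 0.038 and MRPL23 of -0.063. MRPL17 varied least between batches of all 73 genes, at 0.028, 0.064 and 0.026. The groups did not overlap for MRPL44, but its 2 probes gave 0.18 and -0.0068, so that the separation came from 1 of them.

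MRPL21 had values of 0.16, 0.47 and 0.19 in shNDRG1 cells and of -0.14, 0.042 and -0.042 in the control, with no overlap and a difference of 0.32 (SE 0.06, adjusted p 0.336). MRPL4, which lines the exit tunnel, had values of 0.042, 0.70 and 0.36 in shNDRG1 cells and of -0.20, 0.45 and -0.042 in the control. Both MRPL4 values of batch 2 were high, and the difference of 0.30 (SE 0.06, adjusted p 0.348) came from within-batch values of 0.24, 0.25 and 0.41. MRPL10 and MRPL11, which form the base of the stalk that recruits translation factors, had differences of 0.19 and 0.068. Without the shNDRG1 array of batch 2, in the fit with no replicate block, the difference of MRPL4 was 0.13 and that of MRPL10 0.048. MRPL58, a peptidyl-tRNA hydrolase that is built into the large subunit, had values of 0.13, 0.56 and 0.19 in shNDRG1 cells and of 0.064, -0.064 and -0.19 in the control. Its groups did not overlap, and its difference was 0.36 (SE 0.12, adjusted p 0.485). MRPS30, a large subunit protein in spite of its symbol, had a difference of 0.25, from 0.42, 0.28 and 0.057 within the batches.

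MRPL51 alone lay below the control in all 3 batches, although MRPL19, MRPL23 and MRPL30 had lower means, at -0.057, -0.063 and -0.057. Its values were 0.016, -0.0047 and -0.069 in shNDRG1 cells and 0.079, 0.021 and 0.0047 in the control. The groups overlapped, and the difference was -0.054 (SE 0.05, adjusted p 0.844).

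Many of these differences moved when arrays were left out. Leaving out 1 array at a time breaks a batch pair, so those fits had no replicate block. Of 45 named members, MRPL18, MRPL21, MRPL44, MRPL45, MRPL46, MRPS5, MRPS10, MRPS21, MRPS33 and MRPS34 stayed within 1.5 times their difference in all 6 such fits, and 17 of the 45 did so in the blocked fits without a whole batch. MRPS7 and MRPS35 both had 0.14 at the lowest, the first without the shGFP control array of batch 3 and the second without that of batch 2.

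Some genes lay on opposite sides of the control in batches 2 and 3, although the labels give both batches the same day. MRPL42, a large subunit protein found only in mitochondria, varied most between batches. Its values were 0.23, -0.22 and -0.091 in shNDRG1 cells and 0.20, -0.83 and 0.38 in the control, so that its differences were 0.026, 0.61 and -0.47. In all, 11 of the 73 genes lay more than 0.2 above the control in batch 2 and more than 0.2 below it in batch 3 (15.1%, against 4% of all genes), a limit chosen after the values had been seen. They were MRPL1, MRPL13, MRPL19, MRPL30, MRPL35, MRPL39, MRPL42, MRPL47, MRPL50, MRPS25 and MRPS31. The opposite pattern was seen in 1 gene, MRPL28 (1.37%, against 1.24%).

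The choice of the 11 genes fixes that the step from batch 2 to batch 3 is more upward on their control arrays than on their shNDRG1 arrays. The medians that follow, and their contrast with the other 62 genes, restate this choice and are not a further result. The median value of the 11 genes was 0.26, -0.14 and -0.034 on the shNDRG1 arrays of batches 1, 2 and 3, against 0.20, -0.56 and 0.38 on the shGFP control arrays. For the other 62 genes it was 0.061, 0.18 and 0.068 in shNDRG1 cells, against -0.0060, 0.023 and -0.074 in the control. Across the 73 genes the difference in batch 2 correlated with that in batch 3 at r = -0.26 (Spearman's rho -0.15), whereas over all genes r was 0.040. For batches 1 and 2 r was 0.29 (rho 0.32) across the 73 genes and 0.36 over all genes, and for batches 1 and 3 it was 0.13 (rho 0.22) and 0.21. These genes share the same arrays, so the coefficients are descriptions only.

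**Figure D4:**
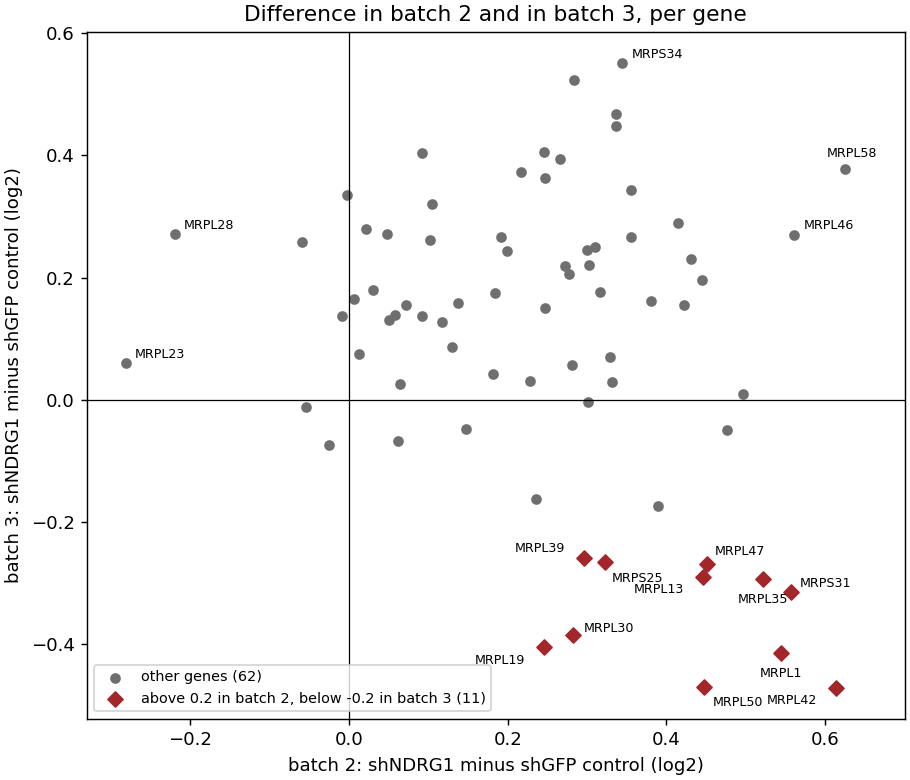
Difference between shNDRG1 and shGFP control in batch 2 (horizontal axis, log2) and in batch 3 (vertical axis, log2) for the 73 genes, with 11 genes above 0.2 in batch 2 and below -0.2 in batch 3 as red diamonds. The red diamonds were chosen by these values, and most of the 62 grey points lie above 0 in both batches.

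Promoters of the 73 genes were searched for short motifs of factors known to act on nuclear genes for mitochondria. The RefSeq promoter table (GRCh38.p14), which spans 250 bases before to 50 after each annotated start, held 65 of the 73 genes and 27305 genes in all. The ETS motif CCGGAAG, bound by factors such as GABPA, stood on either strand in 29 of the 65 (44.6%), against 12.2% of all genes in the table. The YY1 motif AAGATGGC stood in 20 (30.8%, against 3.52%), and 0 of the 65 held an ETS motif overlapping a YY1 motif. The E-box CACGTG of MYC and MAX stood in 8 (12.3%, against 8.77%). GCGCA directly followed by TGCGC, the NRF1 motif, stood in 1 (1.54%, against 1.52%), and the form that leaves 1 free base between GCGC and TGCGC, which includes it, in 9 (13.8%, against 6.98%). Of 66 promoters of listed cytosolic ribosomal protein genes and 70 of listed respiratory chain and ATP synthase genes, the ETS motif stood in 34.8% and 30%, the YY1 motif in 12.1% and 17.1%, and the NRF1 motif with 1 free base in 10.6% and 24.3%. Differences between these lists were not tested. The 65 genes are all protein-coding, whereas the table also holds other genes. Over its 15842 protein-coding genes on the main chromosomes the shares were higher than over the whole table. They were 16.5% (ETS), 4.66% (YY1), 10.9% (E-box), 1.99% (NRF1) and 9.66% (NRF1 with 1 free base). This background was chosen after the shares over the whole table had been seen.

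Of the 14 genes whose groups did not overlap, 12 were in the promoter table and 9 of these held an ETS or a YY1 motif. So did 41 of all 65 genes (63.1%), 14.9% of the genes in the table and 20% of its protein-coding genes on the main chromosomes. Nothing about the 14 genes is read from this count. The stretches below show the motif nearest the start in genes of that set, in capitals and in the direction of the gene. CTTCCGG is the ETS motif read on the opposite strand.
MRPL46: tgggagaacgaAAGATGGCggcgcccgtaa
MRPL45: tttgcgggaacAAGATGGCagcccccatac
MRPS10: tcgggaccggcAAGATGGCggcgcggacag
MRPS33: agagggcgggcCTTCCGGgacgagggcgcg
MRPS21: tagtgagaaccCTTCCGGtgggctaggtac
MRPS12: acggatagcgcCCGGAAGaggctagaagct
MRPL58: ggaagcgcccgCCGGAAGcagtcgcaagac
MRPL16: agtgaacacaaCTTCCGGccccactgagcg
MRPL18: gggacttgctaCTTCCGGgtcggtggcgtc
On GRCh38.p14 the MRPL46 stretch lies on the minus strand at chr15:88467362-88467391 and the MRPL45 stretch on the plus strand at chr17:38297170-38297199. MRPS10 is on the minus strand at chr6:42217834-42217863, MRPS33 on the minus strand at chr7:141014934-141014963, MRPS21 on the plus strand at chr1:150293857-150293886 and MRPS12 on the plus strand at chr19:38930928-38930957. MRPL58 is on the plus strand at chr17:75012651-75012680, MRPL16 on the minus strand at chr11:59810766-59810795 and MRPL18 on the plus strand at chr6:159790430-159790459. In MRPL46, MRPL45 and MRPS10 the YY1 motif began 8, 13 and 9 bases after the annotated start.

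The median difference between shNDRG1 cells and the control was 0.15 in the 29 genes with an ETS motif and 0.12 in the 36 without, and 0.13 in the 20 genes with a YY1 motif and 0.15 in the 45 without. It was 0.17 in the 8 genes with the E-box and 0.13 in the 57 without. For the NRF1 motif with 1 free base it was 0.23 in the 9 genes with it and 0.12 in the 56 without. None of these differences was tested. A match in these letters is not evidence of binding, and no factor was measured on these promoters.

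Transcripts of the factors themselves were measured in part. Of 9 listed factors, 4 had a named probe. MYC had log2 values of 0.014, 0.57 and 0.51 in shNDRG1 cells and of -0.27, -0.014 and -0.042 in the control. These did not overlap, and the difference was 0.47 (SE 0.08, adjusted p 0.318). ESRRA had a difference of 0.21, NRF1 of -0.086 and YY1 of -0.074, and none of these 3 kept its direction in all 3 batches.

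Other genes of mitochondrial translation also had means mostly above the control. Over all genes, 53.6% had a mean above it, 17.1% lay above it in all 3 batches and 5.7% did so at an unadjusted p under 0.05. Among 20 measured factors for assembly and ribosomal RNA (of 23 listed), 17 lay above the control (85%) with a median of 0.065, and 5 in all 3 batches (25%). Above the control at an unadjusted p under 0.05 were 3 (15%). They were MRM2 and DDX28, which act on large subunit rRNA and its assembly, and FASTKD2, at 0.17, 0.16 and 0.25 above the control. RBFA and MTERF3 had the smallest p among those below it, at -0.031 and -0.0078. Among 11 measured translation factors (of 15), 8 lay above the control (72.7%) with a median of 0.084, and 2 in all 3 batches (18.2%). In batch 3, 5 of the 11 lay above it, and the median was -0.0104. TACO1, an activator of COX1 translation, was the only one at an unadjusted p under 0.05 (9.09%), with a difference of 0.23. LRPPRC, which stabilises mitochondrial mRNAs, had 0.24, or 0.0083 without the shGFP control array of batch 2 in the fit with no replicate block. MTFMT and MTRF1L had -0.15 and -0.024. Of 3 measured mitoribosomal proteins with other symbols, PTCD3 and CHCHD1 lay above the control at 0.15 and 0.12 and DAP3 below it at -0.052. In batch 3, 0 of these 3 lay above it. Of 4 measured genes of mitochondrial DNA maintenance and transcription (of 12), all had means above the control, led by TWNK, the mitochondrial helicase, at 0.24, and PNPT1, at 0.22. In all 3 batches 1 of the 4 lay above it, and in batch 3 alone 2 did. PNPT1 had 0.15, 0.58 and -0.085 in batches 1, 2 and 3, with a control value of -0.76 in batch 2. Its lowest difference when arrays were left out was -0.0998. Of 17 listed mitochondrial tRNA synthetases, 0 had a named probe, so they could not be analysed.

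The nuclear genes of the respiratory chain and ATP synthase, whose products join those made by this ribosome, were counted in the same way. Of 26 measured genes of this kind (of 88), 17 were COX genes, 6 were CYC1 and UQCR genes and 3 were ATP5 genes. The list thus stands for complexes III and IV and a small part of ATP synthase. Of 37 NDUF and 4 SDH genes listed, 0 had a named probe, so complexes I and II could not be analysed. Of the 26, 20 lay above the control (76.9%) with a median of 0.087, 7 in all 3 batches (26.9%) and 3 at an unadjusted p under 0.05 (11.5%). The 6 below it were COX4I2, COX6A2, COX6B2, COX7A1, UQCRB and UQCRC2. The list holds several isoforms of some COX subunits. Whether each is expressed in SKBR3 cells could not be checked, as no level remains. Of 52 measured cytosolic ribosomal protein genes (of 84), 46 lay above the control with a median of 0.069, 13 in all 3 batches (25%) and 6 at an unadjusted p under 0.05 (11.5%). No difference between these lists and the mitochondrial ribosomal protein genes was tested.

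**Figure D5:**
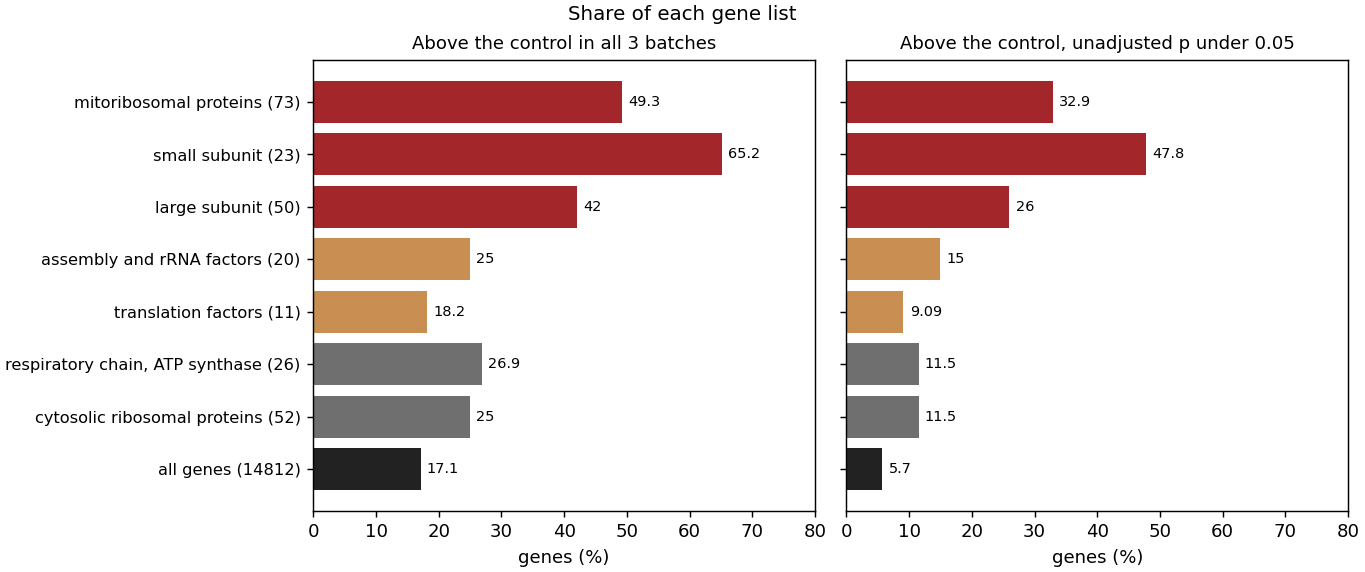
Share of the measured genes of each list (horizontal axes, percent, number of genes in brackets) that lay above the shGFP control in all 3 batches (left) and at an unadjusted p under 0.05 (right). The 73 mitoribosomal protein genes stand at 49.3% and 32.9%, against 17.1% and 5.7% of all 14812 genes.

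Transcripts of dividing cells lay on the other side of the control. All 12 listed proliferation genes had means below the control, with a median of -0.27, as did 6869 of all 14812 genes. Of the 12, 8 lay below it in all 3 batches (66.7%, against 12.5% of all genes). At an unadjusted p under 0.05, 4 lay below it (33.3%, against 3.74%). These were FOXM1, CCNB2, PLK1 and MKI67, at -0.45, -0.36, -0.25 and -0.29. AURKA and CCNA2 differed least, at -0.0084 and -0.016. The part of a difference in growth in the values of the mitochondrial ribosomal protein genes was not tested, and in bulk RNA fewer dividing cells and less of these RNAs per cell cannot be told apart.

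The 4 symbols left out of the list were measured too. The antisense transcript MRPL20-AS1 had a difference of 0.17 with no overlap between the groups, while MRPL20 itself had 0.0003. MRPL23-AS1 had -0.079, the pseudogene MRPL42P5 -0.16 and the pseudogene MRPL45P2 -0.067. Sharing of signal between a gene and its near-identical copies was not tested.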

How the data were processed

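RNA from the 6 cultures was hybridised to Affymetrix Gene 2.0 ST arrays. Per the labels and the study's methods, the authors checked the arrays in Affymetrix Expression Console, normalised them by quantiles with PLIER in GeneSpring and subtracted the median of the control samples. The deposited log2 values do not bear out this baseline: the control median was 0 (within 1e-05) for 0.338% of probes, the median of all 6 arrays for 26.8%. Neither a log base nor a genome build is named in the sources used here. The number of arrays limits precision.

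Of 44629 probes, 15835 carried 1 gene symbol and 28794 none. Probes of a gene were averaged, with no filter on low values because no level remains. Differences were fitted over all 14812 genes with limma 3.58.1 (lmFit, eBayes) in R 4.3.3 with batch as a block, and p-values adjusted by Benjamini-Hochberg. The pairing came from the batch names in the labels; deviations of same-batch arrays correlated over all genes at 0.785, 0.833 and 0.163, and over the 73 genes at 0.81, 0.822 and 0.077. Between any 2 arrays, at most 54 of the 44629 probes had exactly equal values. The study calls its replicates independent, and the shNDRG1 arrays all came from cells with the same 1 hairpin.

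Members, lists and tests were chosen with earlier results of these data known. Genes were named by rule: NDRG1, the 8 smallest p in each direction among genes moving the same way in all 3 batches (downwards only MRPL51 did), the genes of largest and smallest spread, proteins of fixed structural sites, and the 2 smallest p in each direction of each other list. Genes whose groups did not overlap, those opposed between batches, FASTKD2, the proliferation genes, the left-out symbols and ALDH2 were named after their values were seen. Cytosolic ribosomal genes on the Y chromosome were not used. The fit was tested on simulated data, where it was free of bias; the share of true differences it found there was lower when each gene kept its own variance than when variances were moderated, so nothing on power is drawn from it. In all, 22 alternative settings were computed.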

Additional observations from a re-analysis of the deposited data

How the results depend on the processing

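The count of the 73 genes above the control at an unadjusted p under 0.05, 24 with batch as a block, was 11 with no replicate block, 11 with the day in the labels as the block, 8 with unmoderated variances and 9 at an unadjusted p under 0.01. It ranged from 5 to 20 when arrays were left out (14 without batch 2, and 5 without the shNDRG1 array of batch 3 in the fit with no replicate block). Leaving out both arrays of a batch, 2 to 4 genes lay below the control in both remaining batches. The count of all genes past an adjusted p of 0.05 was 1 with a trended and robust variance (ALDH2, at -0.84). The number of the 73 genes above the control stayed between 53 and 67 and their median between 0.113 and 0.179 when arrays were left out, and no setting placed any of them past an adjusted p of 0.05. Normalising the deposited baseline differences by quantiles again turned the direction of MRPL42 (-0.093), MRPL48 (-0.020), MRPL1 (-0.019), MRPL13 (-0.030), MRPL35 (-0.054), MRPL39 (-0.032), MRPS25 (-0.059) and MRPS31 (-0.043). Array weights turned MRPL48 (-0.056), MRPL22 (-0.031) and MTERF3 (0.0041), and the probe of largest range turned MTRF1L (0.024). Leaving out arrays turned the direction of 28 of 62 named genes, whose lowest and highest differences were DAP3 -0.18 to 0.022, MRPL1 -0.19 to 0.34, MRPL11 -0.057 to 0.18, MRPL13 -0.15 to 0.29, MRPL17 -0.039 to 0.11, MRPL19 -0.23 to 0.12, MRPL22 -0.056 to 0.13, MRPL23 -0.15 to 0.067, MRPL30 -0.23 to 0.11, MRPL35 -0.25 to 0.29, MRPL38 -0.094 to 0.17, MRPL39 -0.21 to 0.22, MRPL42 -0.32 to 0.32, MRPL47 -0.14 to 0.32, MRPL48 -0.12 to 0.19, MRPL50 -0.19 to 0.40, MRPL52 -0.047 to 0.018, MRPS14 -0.019 to 0.18, MRPS2 -0.0053 to 0.21, MRPS22 -0.013 to 0.32, MRPS25 -0.18 to 0.22, MRPS26 -0.025 to 0.19, MRPS31 -0.20 to 0.32, MTERF3 -0.13 to 0.086, MTRF1L -0.16 to 0.11, PNPT1 -0.0998 to 0.41, RBFA -0.12 to 0.065 and YY1 -0.20 to 0.029. Of the 62 genes, 13 stayed within 1.5 times their difference when 1 array was left out and 21 when a batch was. The cause of these changes was not tested. Counted over protein-coding genes on the main chromosomes, a background chosen after the shares over the whole table had been seen, the motifs stood in 16.5% (ETS), 4.66% (YY1), 10.9% (E-box), 1.99% (NRF1) and 9.66% (NRF1 with 1 free base) of promoters. The planned setting without MRPS36 was not run because that gene, now KGD4 in RefSeq, is not among the 73.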
